A study of Caenorhabditis elegans with 12 samples.

Results

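The comparison set the isp-1;sod-3 double mutant of Caenorhabditis elegans against the isp-1;sod-5 double mutant, 3 RNA-seq libraries of each, taken by the genotype label of the library. These were 6 of the 12 libraries in the series, and 3 libraries each of the isp-1 single mutant and of wild type gave the levels on either side. Each is called here by its second gene, as the sod-3 or the sod-5 double mutant, and both carried, like the isp-1 group, a mutation in isp-1, to which each added a mutation in 1 superoxide dismutase gene. Wild type carried neither. RNA came from whole worms at the young adult stage before fertility, fed OP50 bacteria on agar plates at 20 °C. The labels do not name the alleles. The design text gives 9 biological replicates for each genotype and joins the RNA of 3 of them per library, although each sample is also marked as not pooled. Nothing states how the strains were built or outcrossed, and p-values measure the spread between these libraries, part of which may be technical.

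Superoxide dismutases convert superoxide, a by-product of respiration, into hydrogen peroxide and oxygen. ISP-1 is the Rieske protein, an iron-sulphur subunit of complex III of the respiratory chain, and its mutant is known for slow respiration, raised mitochondrial superoxide and a long life. SOD-3 is the inducible manganese enzyme of the mitochondrial matrix and a classic target of the transcription factor DAF-16, and SOD-5 is the inducible copper/zinc enzyme of the cytosol. The direct comparison asks which transcripts differ between loss of the mitochondrial and loss of the cytosolic inducible enzyme in the isp-1 background.

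A handful of genes differed between the double mutants in a fit to all 12 libraries, whose gene-wise spread also drew on isp-1 and wild type. Of 14013 genes tested, 8 differed at a Benjamini-Hochberg adjusted p below 0.05 with limma, which is 0.0571% of the genes tested. In the sod-3 double mutant, 2 of them were higher (0.0143%) and 6 were lower (0.0428%). The genes that were higher were F36G3.2 and ztf-25. Those that were lower were timm-17B.2, sod-3, ire-1, cul-5, BE0003N10.6 and D1014.6. With limma on only the 6 double mutant libraries, 2 of the 8 passed, timm-17B.2 and F36G3.2. At an unadjusted p below 0.05 the count was 177 genes (1.26%), with 94 higher (0.671%) and 83 lower (0.592%) in the sod-3 double mutant. The median log2 fold change over all tested genes was −0.026, the median absolute log2 fold change 0.14 and the median standard error 0.245. Only 40 genes (0.285%) reached 2-fold in the fit with no threshold on p.

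Depth and RNA makeup differed between libraries of the same genotype. Libraries of the sod-3 double mutant held 155071752, 14931515 and 15494097 reads in genes, and those of the sod-5 double mutant 10633835, 5438798 and 20014693, so that 1 read was worth 0.00645 CPM in the deepest library and 0.184 CPM in the shallowest. The spread between libraries, as the median SD of log2 values, was 0.217 for the sod-3 double mutant and 0.270 for the sod-5 double mutant, beside 0.126 for isp-1 and 0.120 for wild type, and the fit gave each genotype its own weight. One library stood apart. Ribosomal RNA made up 4.11%, 6.41% and 5.01% of reads for the sod-3 double mutant, against 6.39%, 4.79% and 0.368% for the sod-5 double mutant, and the top gene of replicate 3 of the sod-5 double mutant was vit-6 where that of the other 5 was rrn-3.1. Without that library the count of called genes was 6, with BE0003N10.6 and D1014.6 lost.

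**Figure D1:**
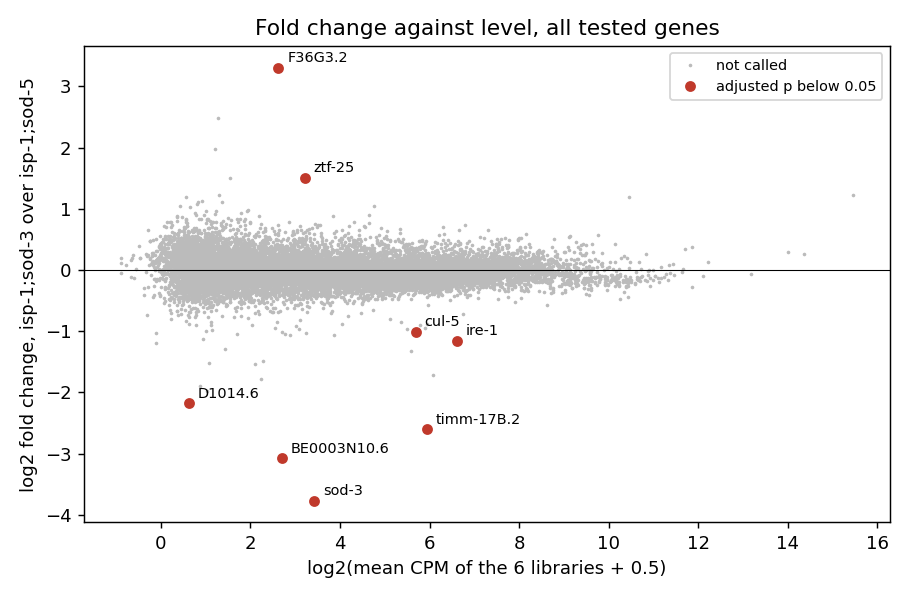
Log2 fold change of isp-1;sod-3 over isp-1;sod-5 (y axis) against the log2 of the mean CPM of the 6 libraries plus 0.5 (x axis), 1 point for each of 14013 tested genes. The 8 genes past the adjusted p of 0.05 are named; F36G3.2 (3.31) and sod-3 (−3.77) lie at the upper and lower ends, and most other genes lie near 0.

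The mutated dismutase genes themselves were read first. In the sod-3 double mutant the sod-3 transcript (WBGene00004932, WBcel235 chromosome X, 17092753 to 17094306) stood at 0.148, 1.47 and 1.74 CPM, against 15.1, 16.9 and 26.1 CPM in the sod-5 double mutant. The 3 sod-3 double mutant libraries all lay below all 3 sod-5 double mutant libraries, and the deepest of them was the lowest. The difference was −3.77 on the log2(CPM + 0.5) scale (SE 0.42, limma adjusted p = 0.00147). That is 13.6-fold lower on this scale, a value that the pseudocount holds down. The call was lost with edgeR on the recovered reads of the 12 libraries (log2 fold change −4.49, adjusted p = 0.0597) and when only the 6 double mutant libraries were used, with limma (−3.77, adjusted p = 0.0721) or edgeR (−4.35, adjusted p = 0.746). The remaining signal came from 23, 22 and 27 reads. The gene shares 547 bases with C08A9.3 and 24 bases with lido-1, both on the opposite strand, and the part of sod-3 that the mutation removes is not named in the labels.

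The sod-5 transcript (WBGene00007036, chromosome II, 4417633 to 4419130) was low in every genotype and did not enter the limma fit. It was counted at 0.832, 1.01 and 1.61 CPM in the sod-3 double mutant, from 129, 15 and 25 reads. In the sod-5 double mutant it was counted at 0.188, 0 and 0.350 CPM, from 2, 0 and 7 reads. A count of 0 in replicate 2 of the sod-5 double mutant allows up to 0.552 CPM, taken as 3 reads and covering counting error only. The libraries did not overlap between the double mutants, and an exact two-sided permutation test on CPM gave p = 0.1, the smallest p that 3 against 3 can give. In isp-1 the level was 0.418 ± 0.267 CPM and in wild type 0.172 ± 0.0853 CPM (SD, n = 3 each), and the sod-5 double mutant libraries overlapped those of both. All sod-3 double mutant libraries lay above those of isp-1 and wild type, of which the highest was 0.616 CPM. The low sod-5 level thus does not set the sod-5 double mutant apart from isp-1 or wild type.

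None of the dismutases that neither strain lacks passed the test. The major cytosolic enzyme sod-1 averaged 150 ± 3.76 CPM in the sod-3 double mutant and 155 ± 13.5 CPM in the sod-5 double mutant (SD, n = 3 each). The main mitochondrial enzyme sod-2 averaged 107 ± 1.05 CPM in the sod-3 double mutant and 113 ± 8.22 CPM in the sod-5 double mutant, and the extracellular enzyme sod-4 averaged 10.5 ± 0.686 CPM in the sod-3 double mutant and 10.3 ± 2.13 CPM in the sod-5 double mutant. Their log2 fold changes were −0.05 (SE 0.14) for sod-1, −0.07 (SE 0.13) for sod-2 and 0.04 (SE 0.23) for sod-4. The sign for sod-1 turned to 0.02 with TMM factors, with edgeR on 12 libraries and without replicate 3 of the sod-5 double mutant, and that for sod-4 to −0.11 without replicate 1 of the sod-5 double mutant. The catalases ctl-1 and ctl-2, which break down the hydrogen peroxide, had log2 fold changes of −0.23 (SE 0.37) and 0.12 (SE 0.16). The isp-1 transcript averaged 360 ± 36.4 CPM in the sod-3 double mutant and 395 ± 49 CPM in the sod-5 double mutant, with a log2 fold change of −0.13 (SE 0.14), and was not called.

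**Figure D2:**
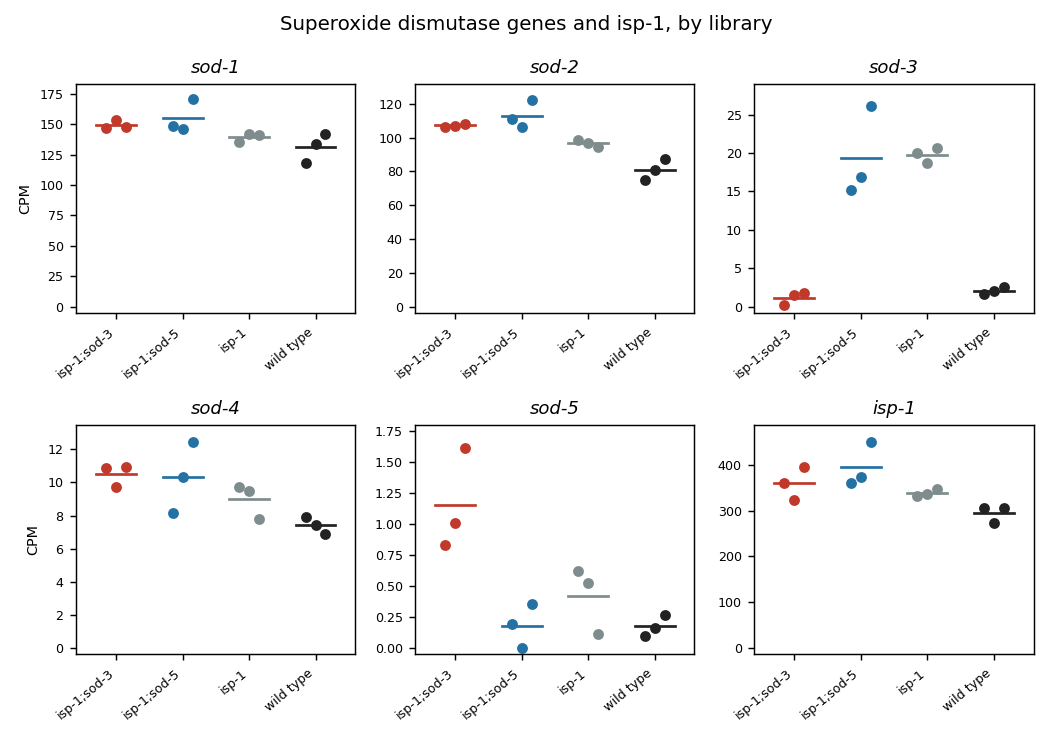
CPM of the 5 superoxide dismutase genes and of isp-1 in each library (y axis, linear), by genotype (x axis); points are libraries and bars are group means (n = 3). The sod-3 points of isp-1;sod-3 lie at 1.74 CPM or below, and those of sod-5 in isp-1;sod-5 at 0.350 CPM or below. The sod-5 points of isp-1 and wild type overlap those of isp-1;sod-5, and the sod-5 points of isp-1;sod-3 lie above all others.

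Among genes outside the mutated loci, timm-17B.2 had the smallest adjusted p. The gene (WBGene00017069, chromosome IV, 8396648 to 8397954) encodes a Tim17-family protein, a family whose members form the channel that carries proteins across the inner mitochondrial membrane. It stood at 16, 18.7 and 15.5 CPM in the sod-3 double mutant, against 94.4, 99.8 and 120 CPM in the sod-5 double mutant. All 3 libraries of the sod-3 double mutant were far below every library of the sod-5 double mutant. The fold change was −2.60 on the log2 scale (SE 0.22, limma adjusted p = 5.87e-05), a 6.08-fold lower level in the sod-3 double mutant. The call held in 26 of 26 alternative settings. The isp-1 level was 10.4 ± 1.43 CPM and the wild type level 4.62 ± 0.654 CPM. Against isp-1 the log2 fold change was 0.66 in the sod-3 double mutant (adjusted p = 0.0859) and 3.27 in the sod-5 double mutant (adjusted p = 5.28e-08).

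No other gene of mitochondrial import or mitochondrial stress on the lists was called. The paralogue timm-17B.1 averaged 147 ± 15.2 CPM in the sod-3 double mutant and 170 ± 39.4 CPM in the sod-5 double mutant, with a log2 fold change of −0.19 (SE 0.15), and was not called. In the list of 21 genes of the mitochondrial unfolded protein response, which raises chaperones and import factors when mitochondrial proteins misfold, timm-17B.2 was the 1 gene called and 20 were not. The median log2 fold change of the list was −0.06, beside −0.026 over all tested genes. The prohibitins phb-1 and phb-2, scaffold proteins of the inner membrane, had log2 fold changes of −0.17 and −0.14.

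The endoplasmic reticulum stress sensor ire-1 (WBGene00002147, chromosome II, 8112243 to 8124910) was lower in the sod-3 double mutant. It encodes the transmembrane kinase and RNase that splices xbp-1 mRNA when unfolded proteins gather in that compartment. Its level was 63.0, 62.4 and 53.4 CPM in the sod-3 double mutant, against 136, 153 and 112.5 CPM in the sod-5 double mutant. No library of one strain reached those of the other. The difference was −1.15 on the log2 scale (SE 0.14, limma adjusted p = 0.00215), a 2.22-fold lower level. In isp-1 the level was 152 ± 9.51 CPM and in wild type 137 ± 5.92 CPM, so that the sod-3 double mutant lay below all 3 other genotypes. Against isp-1 the ire-1 log2 fold change was −1.34 in the sod-3 double mutant (adjusted p = 4.25e-06) and −0.19 in the sod-5 double mutant (adjusted p = 0.635). The call was lost without replicate 2 of the sod-5 double mutant (log2 fold change −1.05, adjusted p = 0.0734), with only the 6 double mutant libraries (−1.15, adjusted p = 0.0721) and with edgeR on those 6 (−1.14, adjusted p = 0.156). On the opposite strand unc-105 overlaps ire-1 by 6456 bases, and its own log2 fold change was 0.17. The kit marks strand, and the sources used here do not say whether reads were counted by strand.

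None of the other 24 genes on the endoplasmic reticulum list was called, and the list's median log2 fold change was −0.02. The transcription factor xbp-1, whose mRNA IRE-1 splices, averaged 171 CPM in the sod-3 double mutant and 181 CPM in the sod-5 double mutant, with a log2 fold change of −0.09 (SE 0.26). The chaperone hsp-4, the usual reporter of the pathway, averaged 326 CPM in the sod-3 double mutant and 334 CPM in the sod-5 double mutant (−0.02, SE 0.15), and its relative hsp-3 averaged 518 and 580 CPM in the sod-3 and sod-5 double mutants (−0.17, SE 0.15). The sensors of the parallel branches, pek-1 and atf-6, had log2 fold changes of 0.17 (SE 0.22) and 0.04 (SE 0.21). Gene totals do not show splicing of xbp-1.

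The cullin cul-5 (WBGene00000840, chromosome V, 10179535 to 10183154), scaffold of a class of ubiquitin ligases that mark proteins for breakdown, was lower in the sod-3 double mutant by a similar factor. It stood at 35.6, 35.5 and 29.9 CPM in the sod-3 double mutant, against 65.9, 78.7 and 60.7 CPM in the sod-5 double mutant. The groups were well apart. The difference was −1.01 on the log2 scale (SE 0.13, limma adjusted p = 0.00334), a 2.01-fold lower level. Levels in isp-1 and wild type were 81.8 ± 1.29 and 82.7 ± 2.34 CPM, and the log2 fold change against isp-1 was −1.27 in the sod-3 double mutant (adjusted p = 3.76e-06) and −0.26 in the sod-5 double mutant (adjusted p = 0.406). The call was lost without replicate 2 of the sod-5 double mutant (log2 fold change −0.90, adjusted p = 0.116), with only the 6 double mutant libraries (−1.01, adjusted p = 0.141) and with edgeR on those 6 (−0.99, adjusted p = 0.189). None of the other measured cullins was called, with log2 fold changes of 0.08 for cul-1, 0.03 for cul-2, 0.11 for cul-3, 0.04 for cul-4 and 0.04 for cul-6.

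The gene ztf-25 (WBGene00012405, chromosome V, 17601820 to 17602970), named as a zinc finger putative transcription factor, was higher in the sod-3 double mutant. It stood at 14.3, 14.7 and 10.8 CPM in the sod-3 double mutant, against 4.23, 4.23 and 4.40 CPM in the sod-5 double mutant. The lowest sod-3 double mutant library was above the highest of the sod-5 double mutant. The log2 fold change was 1.51 (SE 0.22, limma adjusted p = 0.00861), a 2.85-fold higher level. The level in isp-1 was 14.3 ± 1.80 CPM, close to that of the sod-3 double mutant, and in wild type 8.90 ± 0.179 CPM. Against isp-1 the log2 fold change was −0.11 in the sod-3 double mutant (adjusted p = 0.907) and −1.62 in the sod-5 double mutant (adjusted p = 0.000127). The call was lost without replicate 1 of the sod-3 double mutant (adjusted p = 0.299), without replicate 2 of the sod-5 double mutant (adjusted p = 0.19), with only the 6 double mutant libraries (adjusted p = 0.139) and with edgeR on those 6 (adjusted p = 0.108).

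The other 3 called genes carry no locus name, are annotated only as protein-coding, and are described here because they passed the test, a choice made after their values were seen. All 3 were far lower in isp-1 than in wild type. F36G3.2 (WBGene00009483, chromosome X, 9792406 to 9794273) stood at 11.7, 7.97 and 12.52 CPM in the sod-3 double mutant, against 0.470, 0.552 and 0.849 CPM in the sod-5 double mutant. Every sod-3 double mutant library was above every sod-5 double mutant library. The isp-1 level was 0.745 ± 0.449 CPM and the wild type level 14.2 ± 1.69 CPM, so that the sod-3 double mutant was near wild type and the sod-5 double mutant near isp-1. The log2 fold change was 3.31 on the log2(CPM + 0.5) scale (SE 0.43, limma adjusted p = 0.00335). The sod-3 double mutant was 9.91-fold higher on that scale, a value that the pseudocount holds down. Against isp-1 the log2 fold change was 3.22 in the sod-3 double mutant (adjusted p = 4.94e-05) and −0.09 in the sod-5 double mutant (adjusted p = 0.964). The call was lost with a pseudocount of 0.1 (adjusted p = 0.0718), without replicate 1 of the sod-3 double mutant (adjusted p = 0.101) and without replicate 2 of the sod-5 double mutant (adjusted p = 0.116).

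BE0003N10.6 (WBGene00255598, chromosome III, 1056230 to 1060061) moved the other way, at 0.742, 0.871 and 0.710 CPM in the sod-3 double mutant and 5.17, 13.4 and 15.2 CPM in the sod-5 double mutant. The sod-3 double mutant values were tight and the sod-5 double mutant values wide, with no overlap. This gave a log2 fold change of −3.08 (SE 0.44, limma adjusted p = 0.0123). The gene stood at 3.58 ± 1.41 CPM in isp-1, between the double mutants, and at 44.8 ± 0.447 CPM in wild type. D1014.6 (WBGene00017019, chromosome V, 8121168 to 8123470) showed the same order at a lower level. It was counted at 12, 0 and 0 reads in the sod-3 double mutant (0.0774, 0 and 0 CPM) and at 9, 16 and 48 reads in the sod-5 double mutant (0.846, 2.94 and 2.40 CPM). The log2 fold change was −2.18 on the log2(CPM + 0.5) scale (SE 0.36, limma adjusted p = 0.0285), a value that the pseudocount holds down at such counts. The isp-1 level was 0.483 ± 0.0629 CPM and the wild type level 12.7 ± 1.85 CPM. Its neighbour D1014.7, 0.751 kb away, averaged 0.112 CPM in the sod-3 double mutant and 2.53 CPM in the sod-5 double mutant (log2 fold change −1.90, SE 0.59) and was not called. The BE0003N10.6 and D1014.6 calls were both lost without replicate 3 of the sod-5 double mutant (adjusted p = 0.0961 and 0.205), replicate 2 of the sod-5 double mutant (adjusted p = 0.251 and 0.642) or replicate 1 of the sod-3 double mutant (adjusted p = 0.393 for each). D1014.6 was also lost without replicate 3 of the sod-3 double mutant (adjusted p = 0.0977), without wild type replicate 1 (adjusted p = 0.0541) and with the replicate number as a block (adjusted p = 0.122). A pseudocount of 1 also ended its call (log2 fold change −1.51, adjusted p = 0.0985), as did edgeR on the 6 double mutant libraries (adjusted p = 0.156). With limma on those 6 libraries the adjusted p was 0.0721 for BE0003N10.6 and 0.433 for D1014.6.

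**Figure D3:**
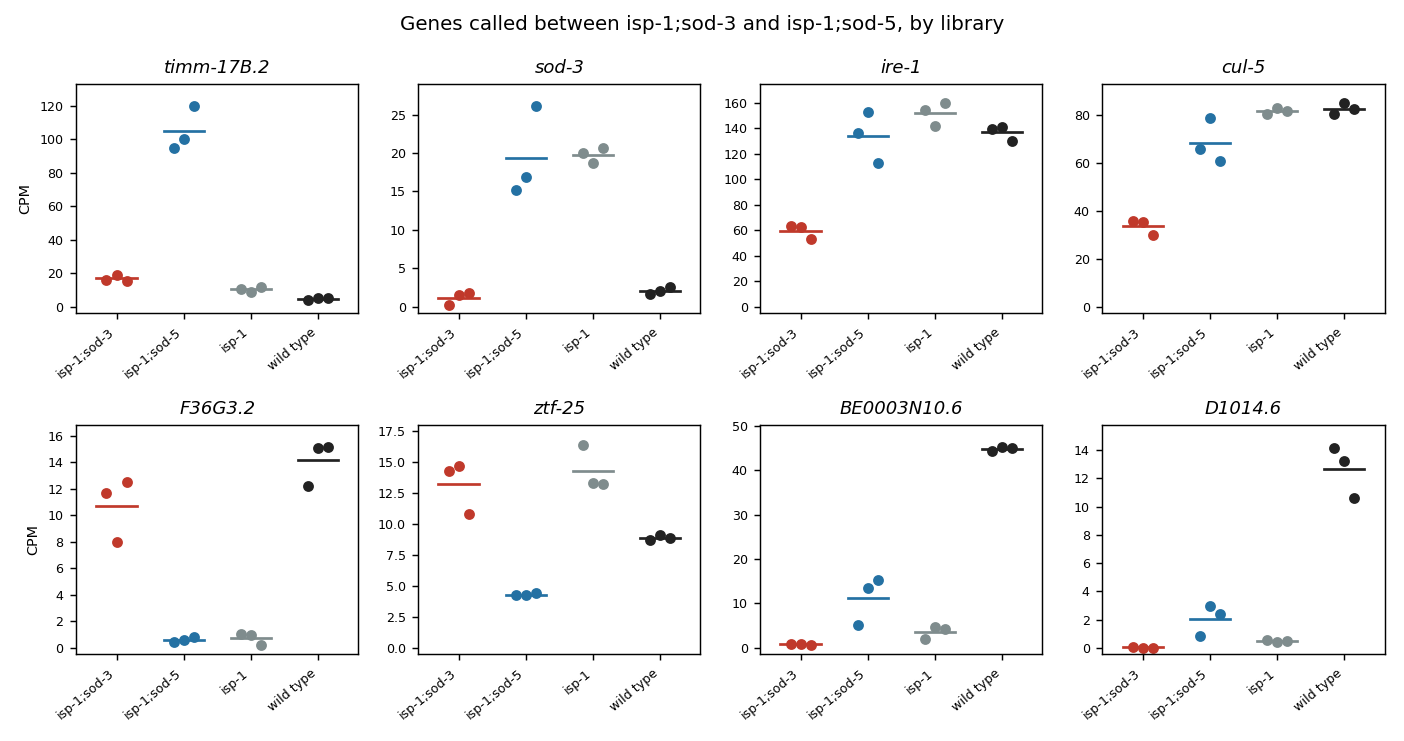
CPM of the 8 called genes in each library (y axis, linear), by genotype (x axis); points are libraries and bars are group means (n = 3). In each panel the isp-1;sod-3 points lie apart from the isp-1;sod-5 points. For ztf-25, isp-1;sod-3 lies near isp-1, and for timm-17B.2 it lies above isp-1 and far below isp-1;sod-5. For sod-3, ire-1 and F36G3.2, isp-1;sod-5 lies near isp-1. For cul-5 the isp-1;sod-5 points lie below those of isp-1 and above those of isp-1;sod-3.

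The 8 called genes thus fell into patterns by the isp-1 level. For sod-3, ire-1, cul-5 and F36G3.2 the contrast with isp-1 passed the test for the sod-3 double mutant and not for the sod-5 double mutant. For timm-17B.2 and ztf-25 it passed for the sod-5 double mutant and not for the sod-3 double mutant. BE0003N10.6 passed for the sod-3 double mutant (log2 fold change −1.61, limma adjusted p = 0.0312) and not for the sod-5 double mutant (1.47, adjusted p = 0.0887), and D1014.6 for neither (−0.90, adjusted p = 0.184, and 1.28, adjusted p = 0.0556). Over all tested genes, 186 were called in the sod-3 double mutant against isp-1 (1.33%) and 144 in the sod-5 double mutant against isp-1 (1.03%). These contrasts share the isp-1 libraries with each other and the double mutant libraries with the direct comparison, so they place the levels and add no separate evidence.

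A further 10 genes had an unadjusted p below 0.001 without passing the adjusted threshold, 2 higher and 8 lower in the sod-3 double mutant, and they were chosen after their values were seen. Their groups did not overlap, as was the case for 732 of all tested genes (5.22%). Dynamin, dyn-1 (chromosome X, 15568890 to 15573021), the GTPase that pinches vesicles from membranes, was nearest to a call. It stood at 135, 133 and 144 CPM in the sod-3 double mutant, against 83.3, 82.9 and 79.2 CPM in the sod-5 double mutant, with a log2 fold change of 0.74 (SE 0.13, limma adjusted p = 0.0698). The libraries of each strain were close together and the strains apart, and isp-1 lay at 80.03 ± 2.65 CPM, level with the sod-5 double mutant. It was called in 8 of 26 alternative settings, and DESeq2 called all 10 genes.

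Others of the 10 encode enzymes. The glutathione peroxidase gene gpx-8 averaged 1.71 ± 0.814 CPM in the sod-3 double mutant and 6.77 ± 1.47 CPM in the sod-5 double mutant (log2 fold change −1.78, SE 0.34, limma adjusted p = 0.106), beside 1.02 ± 0.135 CPM in isp-1. The next gene along, WBGene00018851, averaged 1.09 CPM in the sod-3 double mutant and 3.32 CPM in the sod-5 double mutant (−1.3, SE 0.37). The short-chain dehydrogenase gene dhs-8 averaged 1.7 ± 0.144 CPM in the sod-3 double mutant and 5.91 ± 0.537 CPM in the sod-5 double mutant (−1.54, SE 0.29, limma adjusted p = 0.106), beside 5.58 ± 0.886 CPM in isp-1 and 0.501 ± 0.125 CPM in wild type. Of 27 peroxide and thiol antioxidant genes (median log2 fold change −0.08), gpx-8 was the 1 with an unadjusted p below 0.05. Of 29 short-chain dehydrogenases (median −0.13) dhs-8 was the 1, and no member of either list was called. Over all tested genes 1.26% had an unadjusted p below 0.05. Both genes had been picked by their p, so these counts are no result about the lists. Thus gpx-8 was near its isp-1 level in the sod-3 double mutant and dhs-8 was near its isp-1 level in the sod-5 double mutant.

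F49C12.4, on chromosome IV, was the second gene on the higher side, at 6.17, 1.01 and 4.0 CPM in the sod-3 double mutant against 0.188, 0.184 and 0.05 CPM in the sod-5 double mutant (log2 fold change 2.48, SE 0.46, limma adjusted p = 0.098). Its neighbour F49C12.2 averaged 3.16 CPM in the sod-3 double mutant and 0.462 CPM in the sod-5 double mutant (1.98, SE 0.51), although replicate 2 of the sod-5 double mutant overlapped the sod-3 double mutant range. The gene tcl-2 averaged 8.89 CPM in the sod-3 double mutant and 19.2 CPM in the sod-5 double mutant (−1.06, adjusted p = 0.129). F40D4.13 averaged 40.1 CPM in the sod-3 double mutant and 77.8 CPM in the sod-5 double mutant (−0.95, limma adjusted p = 0.147), beside 23 CPM in isp-1 and 0.434 CPM in wild type. The other 4 were F10E7.2, the lipase-family gene lips-15, the pseudogene WBGene00020028 and Y49G5A.1, with log2 fold changes of −0.80, −0.58, −0.88 and −1.48.

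The position of the differing genes was read against sod-3 on chromosome X and sod-5 on chromosome II. Of the 8 called genes, 3 lay on V, 2 on X, and 1 each on II, III and IV, with none on I. Those on X were sod-3 itself and F36G3.2, which lies 7.3 Mb from it. The gene on II was ire-1, 3.69 Mb from sod-5. Besides sod-3 itself, none of 141 tested genes within 1 Mb of sod-3 was called and 2 (1.42%) had an unadjusted p below 0.05, R11.4 and F10D7.4. None of 318 tested genes within 1 Mb of sod-5 was called and 4 (1.26%) had an unadjusted p below 0.05, F54D10.8, rml-4, B0304.4 and ephx-1. Those shares are close to the 1.26% over all tested genes. The median absolute log2 fold change was 0.168 near sod-3, 0.157 near sod-5 and 0.138 over all tested genes.

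In the main fit, windows of 0.5 Mb and 2 Mb around each of the dismutase genes also held no called gene other than sod-3. Some alternative settings did call genes in the 2 Mb windows. Beyond 1 Mb these included dyn-1, 1.52 Mb from sod-3 (8 of 26 settings), and WBGene00020028, 1.64 Mb from sod-5 (2 of 26 settings). Within 1 Mb of sod-5 the largest change was in F54D10.8, 0.59 Mb away. It averaged 0.104 CPM in the sod-3 double mutant and 0.746 CPM in the sod-5 double mutant (log2 fold change −1.03, SE 0.31). It was called by edgeR on 12 libraries and by DESeq2. Within 1 Mb of sod-3, apart from sod-3 itself, the smallest p was that of R11.4, 0.882 Mb away. Its level was 1.01 CPM in the sod-3 double mutant and 2.43 CPM in the sod-5 double mutant (−0.98, SE 0.33). Around isp-1 itself, which both strains carry as a mutant, 1 of 373 tested genes within 1 Mb was called: timm-17B.2, 0.261 Mb away. That is 0.268%, beside 0.0571% over all tested genes. At an unadjusted p below 0.05 the share in this window was 0.804%, beside 1.26% over all tested genes. The next genes on either side of the called genes were not called, D1014.7 having the smallest p of them. It was called with DESeq2 and without replicate 1 of the sod-5 double mutant.

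**Figure D4:**
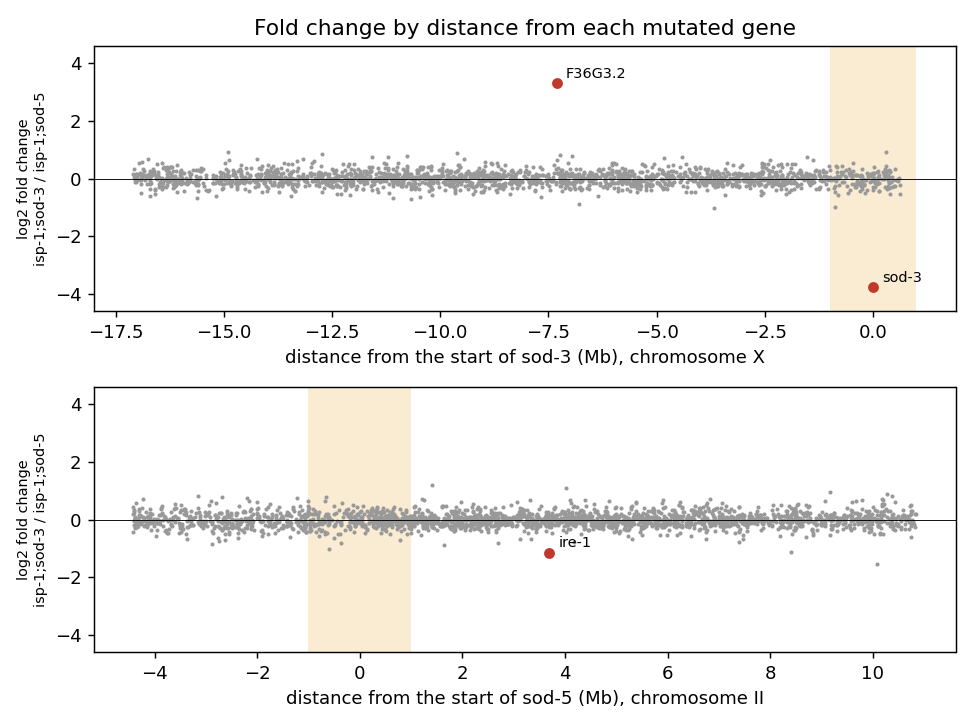
Log2 fold change of isp-1;sod-3 over isp-1;sod-5 (y axis) by distance in Mb from the start of sod-3 on chromosome X (upper panel) and of sod-5 on chromosome II (lower panel), 1 point per tested gene, with the 1 Mb windows shaded. The called genes are named: sod-3 at 0 Mb and F36G3.2 at −7.3 Mb on X, and ire-1 at 3.69 Mb on II.

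Gene groups by function held few of the calls. Of 53 lists, 4 held a called gene: sod-3 in the list of dismutases and catalases and in that of DAF-16 activated genes, timm-17B.2 in the mitochondrial unfolded protein response, and ire-1 in the endoplasmic reticulum list. Among 23 DAF-16 activated genes the median log2 fold change was 0.09, and sod-3 was the 1 member called. The glyoxylate cycle enzyme icl-1 was next on that list, at 1036 CPM in the sod-3 double mutant and 699 CPM in the sod-5 double mutant (log2 fold change 0.58, SE 0.21), and was not called. No member was called among 40 glutathione S-transferases (median −0.02), 57 cytochrome P450 enzymes (0.11), 25 SKN-1 targets (0.04), 19 genes of the HIF-1 response (0.02) or 12 cytosolic heat shock genes (0.04). At the 0.0571% called over all tested genes, lists of such sizes would seldom hold a call. A list without a call therefore says little about its members. The SKN-1 reporter gst-4 averaged 56.2 CPM in the sod-3 double mutant and 47.3 CPM in the sod-5 double mutant (0.22, SE 0.23).

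Respiratory chain and ribosomal genes had negative medians in the sod-3 double mutant, with no member called. The median log2 fold change was −0.18 over 83 cytosolic ribosomal protein genes, of which 82 were negative. It was −0.12 over 69 mitochondrial ribosomal protein genes (63 negative), −0.13 over 28 nuclear complex I genes (23 negative) and −0.14 over 30 nuclear genes of complexes II to V (27 negative), beside −0.026 and 45.1% positive over all tested genes. These medians moved with the library of low ribosomal RNA. The mean deviation of the cytosolic ribosomal genes from the 6-library mean was −0.12, −0.20 and 0.05 in the sod-3 double mutant and −0.01, −0.06 and 0.34 in the sod-5 double mutant, so that replicate 3 of the sod-5 double mutant was the high one and the other 5 overlapped. Without that library the medians were −0.06, −0.03, −0.01 and 0.00 in the order above. Without replicate 2 of the sod-3 double mutant the median was −0.06 for complex I and for complexes II to V, and without replicate 1 of the sod-5 double mutant it was −0.20 for mitochondrial ribosomal genes.

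The 14 genes of mitochondrial DNA had a median log2 fold change of −0.46, with 13 negative and none called, and this moved with several libraries. Their share of reads was 1.3%, 0.541% and 0.74% in the sod-3 double mutant and 0.571%, 1.02% and 1.85% in the sod-5 double mutant, and the median was 0.02 without replicate 3 of the sod-5 double mutant. It was −0.18 without replicate 2 and −0.76 without replicate 1 of the sod-3 double mutant, and −0.92 without replicate 1 of the sod-5 double mutant. The 78 neuropeptide and insulin-like genes had a median of −0.17 (66 negative), which was 0.03 without replicate 3 and −0.37 without replicate 1 of the sod-5 double mutant. The part of ribosomal RNA content in these medians was not tested.

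Markers of cuticle and sperm spread more between libraries of a strain than between the strains' means. Mean deviations of 152 collagens, the structural proteins of the cuticle, were 0.09, −0.67 and 0.79 in the sod-3 double mutant and −0.54, 0.15 and 0.18 in the sod-5 double mutant. Those of 30 major sperm proteins, which drive the crawling of sperm, were 0.15, −0.93 and 0.76 in the sod-3 double mutant and −0.33, −0.02 and 0.37 in the sod-5 double mutant. In both lists replicate 2 of the sod-3 double mutant was lowest and replicate 3 highest, with the sod-5 double mutant between. The summed sperm protein level ran from 252.5 to 907.6 CPM in the sod-3 double mutant and from 403.1 to 703.9 CPM in the sod-5 double mutant. The list medians were 0.14 for collagens and 0.00 for sperm proteins, and they changed sign with single libraries: the collagen median was 0.56 without replicate 2 of the sod-3 double mutant, −0.26 without replicate 3 of the sod-3 double mutant and −0.15 without replicate 1 of the sod-5 double mutant. Molting genes (35, median 0.24) and hedgehog-related genes (33, median 0.17) were likewise highest in replicate 3 of the sod-3 double mutant, but lowest in replicate 1 of the sod-5 double mutant. With the mean collagen level as a covariate, an alternative chosen after seeing the data, 14 genes were called, and all 8 remained among them.

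The vitellogenins, yolk proteins made in the intestine, had positive fold changes in all 6 members, with a median log2 fold change of 0.29 and none called. Their mean deviations were 0.20, 0.31 and −0.01 in the sod-3 double mutant and 0.22, −0.17 and −0.55 in the sod-5 double mutant, so the groups overlapped and replicate 3 of the sod-5 double mutant was lowest. Without that library the median was 0.13. Oocyte and eggshell genes (34, median −0.06), germline mitosis and meiosis genes (55, median −0.06), muscle genes (43, median 0.01), intestine genes (23, median 0.00) and synaptic genes (30, median 0.08) held no called gene. The intestinal regulator elt-2 averaged 13.9 CPM in the sod-3 double mutant and 13.5 CPM in the sod-5 double mutant. The muscle myosin myo-3 averaged 508 CPM in the sod-3 double mutant and 364 CPM in the sod-5 double mutant. It had the smallest p of the muscle list, of which 22 members were positive and 21 negative. The neuronal gene rab-3 averaged 9.22 CPM in the sod-3 double mutant and 10.6 CPM in the sod-5 double mutant, while 20 of the 30 synaptic genes were positive. Single markers thus do not stand for their lists. In such bulk samples fewer cells of a type and less RNA per cell cannot be told apart.

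**Figure D5:**
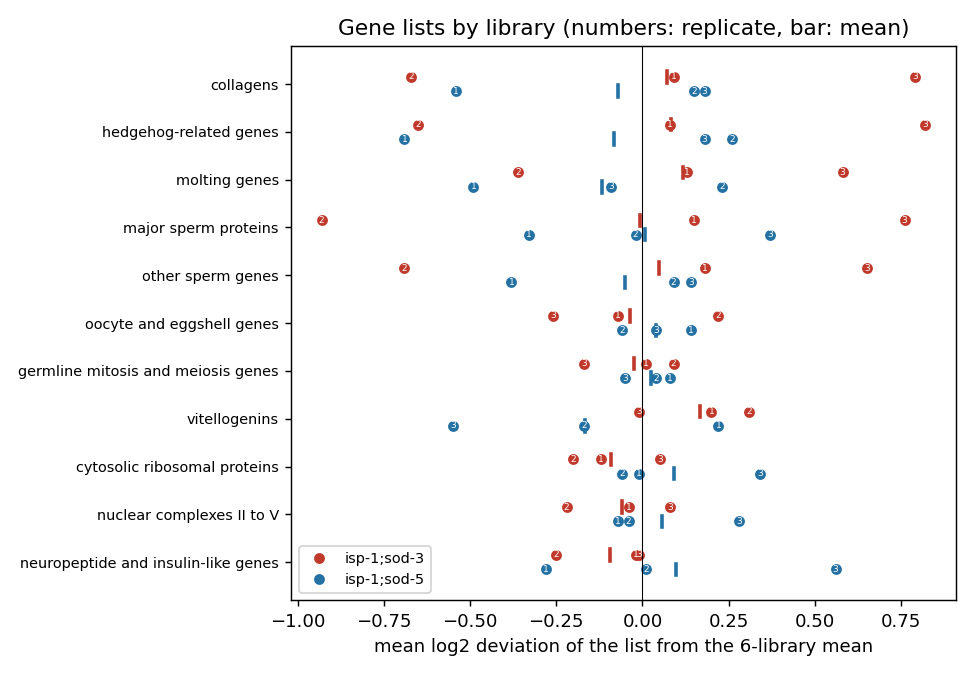
Mean log2 deviation of each gene list from the mean of the 6 libraries (x axis) in isp-1;sod-3 (upper row of each list) and isp-1;sod-5 (lower row); numbered points are replicates and bars are group means. For collagens the points run from −0.67 to 0.79 in isp-1;sod-3 and from −0.54 to 0.18 in isp-1;sod-5, while the bars lie close together.

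Stress-response lists of the gut and skin gave no called gene either: 93 C-type lectins had a median log2 fold change of 0.04, 39 infection response and CUB-like genes −0.04, 10 lysozymes −0.05 and 31 epidermal antimicrobial peptide genes −0.07. The pathogen-response gene irg-3 was the member with the smallest p of the infection list, at 4.06, 3.75 and 3.68 CPM in the sod-3 double mutant against 8.93, 7.17 and 8.64 CPM in the sod-5 double mutant (−1.01, SE 0.28). The lectin gene clec-190 averaged 0.670 CPM in the sod-3 double mutant and 2.57 CPM in the sod-5 double mutant (−1.52, SE 0.46), both below its isp-1 level of 8.03 CPM. In both genes the strains did not overlap, as in 732 of all tested genes (5.22%), and the limma fit made no call, while DESeq2 called irg-3. The flavin monooxygenase fmo-2, a HIF-1 responsive gene, averaged 2.68 CPM in the sod-3 double mutant, 1.44 CPM in the sod-5 double mutant and 7.40 CPM in isp-1 (0.72 between the double mutants, SE 0.29), and was not called.

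The 8 calls differed in how many alternative settings also made them. The timm-17B.2 call was made in all 26 alternatives. Those of sod-3, ire-1, cul-5 and F36G3.2 were made in 23 of 26, those of ztf-25 and BE0003N10.6 in 22 of 26, and that of D1014.6 in 16 of the 25 that tested it, the filter on a mean of 5 CPM having left it out. With only the 6 double mutant libraries limma called timm-17B.2 and F36G3.2, and edgeR called those and BE0003N10.6. The sign of each was the same in every alternative that tested it. Without replicate 1 of the sod-3 double mutant, the deepest library, 4 genes were called: timm-17B.2, sod-3, ire-1 and cul-5. Without replicate 2 of the sod-5 double mutant, the shallowest, 2 were called: timm-17B.2 and sod-3.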

How the data were processed

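RNA-seq libraries of whole worms were made with a stranded mRNA kit, per the labels' protocols. The authors deposited 1 matrix of CPM, read counts scaled to the same total in every library, for 14326 genes and 12 libraries. Per the submitters' processing notes, the tools were edgeR 3.14.0, featureCounts 1.4.6, Subread 1.5.0, R 3.3.0, FastQC 0.11.3 and bcl2fastq 2.17.1.14, with the WBcel235 build. Each library's CPM summed to 1000000, and dividing by the value of 1 read gave whole reads for 100% of values within 0.001 reads. These recovered reads served for depth and for the edgeR and DESeq2 alternatives; for replicate 1 of isp-1;sod-3, the deepest library, too few low values allow a separate check.

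Genes above 1 CPM in at least 3 of 12 libraries were tested: 14013 genes. limma 3.58.1 (R 4.3.3) was fitted to log2(CPM + 0.5) over all 12 libraries, with weights estimated per genotype, and two-sided p-values were adjusted by Benjamini-Hochberg over all tested genes. The fit was also run on simulated counts, drawn separately for each gene and library. Those counts held no shifts shared by many genes, such as those of the collagens here, so the run is not used as support. The pseudocount makes fold changes of low genes smaller. Alternatives, 26 in all, changed the pseudocount, filter, scaling, weights, libraries, tool (edgeR 4.0.16, DESeq2 1.42.0) or covariates, and left out each library in turn. Names and positions came from Ensembl release 115, which held 14250 of the 14326 gene IDs.

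Named genes were isp-1, the sod genes, called genes that have a locus name, average 5 CPM or more and do not overlap between groups, called genes within 1 Mb of sod-3 or sod-5, and in each list described the 4 or fewer members of smallest adjusted p; others are marked or were added after their values were seen, among them the further cullins, endoplasmic reticulum genes, gst-4, neighbouring genes and tissue markers. The members and lists were chosen with earlier results of these data known. No replicate pair was alike within sampling noise.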

Additional observations from a re-analysis of the deposited data

How the results depend on the processing

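The fit described above called 8 genes, 2 higher and 6 lower in isp-1;sod-3. Counts in total, higher and lower were 15, 4 and 11 with no weights, 15, 4 and 11 with edgeR on 12 libraries, 3, 1 and 2 with edgeR on the 6 double mutant libraries, 28, 5 and 23 with DESeq2, 2, 1 and 1 with limma on those 6 libraries, and 14, 3 and 11 with the collagen covariate. Higher genes numbered 1 with a pseudocount of 0.1 and 4 with quantile normalization. Leaving out each library in turn gave 2 to 11 genes in total, 0 to 4 higher and 2 to 8 lower; the total was 4 without isp-1;sod-3 replicate 1 and 2 without isp-1;sod-5 replicate 2. For sod-3 the log2 fold change missed the threshold with 6 libraries (−3.77, adjusted p = 0.0721), edgeR on 12 libraries (−4.49, adjusted p = 0.0597) and edgeR on 6 libraries (−4.35, adjusted p = 0.746). Within 1 Mb of sod-5, 1 gene (F54D10.8) was called with edgeR on 12 libraries and 1 with DESeq2. The sign turned for sod-1 (0.02 with TMM factors, edgeR on 12 libraries and without isp-1;sod-5 replicate 3) and for sod-4 (−0.11 without isp-1;sod-5 replicate 1), with ranges of −0.09 to 0.02 and −0.11 to 0.18 when single libraries were left out. The cause of these shifts was not tested. Scaling alternatives moved the median of all genes by less than 0.1.

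The libraries were not treated as paired by replicate number. Deviations of same-numbered libraries correlated at −0.22, −0.36 and 0.12 across genes, and those of unlike-numbered libraries at −0.42 to 0.50. With 3 libraries per strain these values cannot show whether same-numbered libraries were handled together. With the replicate number as a block, 7 genes were called, 2 higher and 5 lower, with D1014.6 lost. Depth limits low genes most: 1 read was worth 0.184 CPM in the shallowest double mutant library, so sod-5 and D1014.6 rest on few reads.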
